A study of Homo sapiens with 8 samples.

Results

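PLC5 (PLC/PRF/5) and HepG2 are human cell lines grown from primary liver tumours, and the comparison described here sets untreated PLC5 against untreated HepG2 to give the expression differences between the lines before any drug. The 4 arrays were chosen by their labels, 2 of PLC5 control cells and 2 of HepG2 control cells, out of 8 arrays in the series. The other 4 arrays hold PLC5 and HepG2 cells given 10 µM GSK343, which blocks the histone methyltransferase EZH2. They shared the normalization, the estimate of spread and the choice of probe with the control arrays, and also served to repeat the comparison. Total RNA of each culture was amplified, labelled with Cy5 and hybridized to a 1-colour array with 31741 probes. All groups were grown in DMEM with 10% heat-inactivated foetal bovine serum. Titles and sample names give 16 h for every group, the treatment protocol gives 6 h, and the control cells are described only as control, with no word on solvent. Each line comes from 1 tumour, so a difference between the lines cannot be told apart from one between 2 tumours or their donors. Whether duplicate arrays hold RNA of separate cultures is not stated in the labels, and p-values measure the spread between arrays, which may be technical.

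Liver parenchymal cells secrete most of the proteins of blood plasma, package lipoproteins, clear ammonia through the urea cycle, make bile acids and modify foreign compounds. A network of nuclear receptors and other transcription factors holds that programme in place, and tumours of the liver keep it to very different degrees. HepG2 is a hepatoblastoma-derived line known for secreting albumin, apolipoproteins and alpha-fetoprotein, for an activating deletion in its beta-catenin gene and for functional p53. PLC5 is a hepatocellular carcinoma line known for integrated hepatitis B virus DNA and mutant p53.

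The lines differed widely. Of 18336 genes, each read by its brightest single-gene probe, 10723 (58.5%) passed an adjusted p of 0.05 (limma, Benjamini and Hochberg over all probes), 4923 higher in PLC5 (26.8%) and 5800 lower (31.6%). The arrays of the lines were wholly apart, both PLC5 arrays on one side of both HepG2 arrays, for 78.8% of genes. With 2 arrays a line, genes without a difference can also lie wholly apart, so this share does not count differing genes. Counts of gene groups below use a stricter rule, the same adjusted p and a difference of at least 2-fold, which 2685 genes met upward in PLC5 (14.6%) and 2661 downward (14.5%). A group with shares near 14.6% and 14.5% matches this background. The median difference over all genes was -0.09 on the log2 scale after quantile normalization, and 0.86 without normalization, where the PLC5 control arrays had median intensities of 495 and 415 and the HepG2 control arrays of 239 and 226. Group counts depend on that step: without normalization 57 of 80 counts over 40 gene lists moved by more than 1.5 times, each with more members higher or fewer lower in PLC5, and over all genes 34.8% were at least 2-fold higher and 4.5% lower. The larger count changed sides in 10 of the 40 lists. Both counts are given for these, for lists with like counts on both sides and for some others. All values below are normalized intensities or differences relative to that normalization. Differences compare a probe with itself on other arrays. The cuts at intensities of 64 and 1024 and the summed intensities put different probes together, as a description only. Every gene described as higher or lower passed the adjusted p, and 169 of those named met the stricter rule, with adjusted p-values of at most 0.00314.

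**Figure D1:**
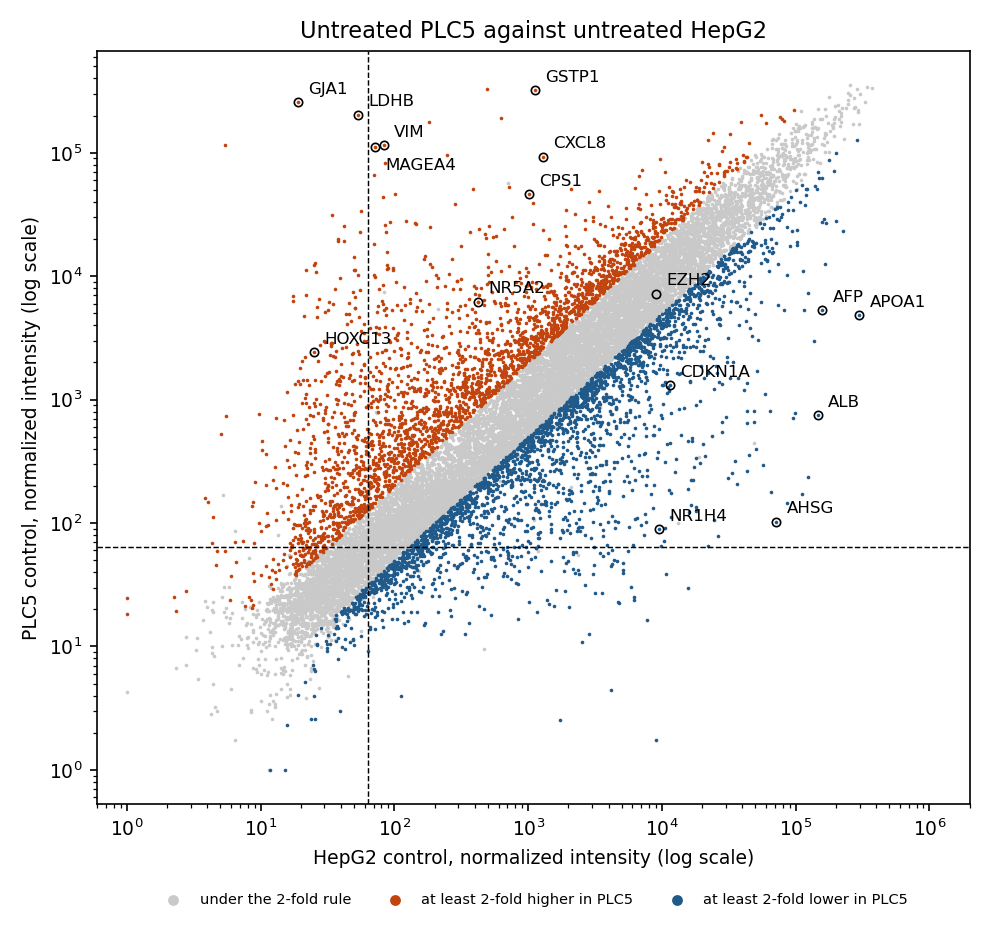
Normalized intensity of 18309 of the 18336 genes in untreated PLC5 (vertical axis, log scale) against untreated HepG2 (horizontal axis, log scale), each the geometric mean of 2 arrays. Genes that met the 2-fold rule are coloured, 2684 higher in PLC5 and 2647 lower, the dashed lines mark the intensity of 64 under which a probe is called dim, and the labelled genes are described in the text.

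Intensities under 64 are called dim here, as a description only, because the spread between duplicate arrays grew at low signal. The median gap between the 2 arrays was 0.31 (log2) in PLC5 and 0.44 in HepG2 for probes under 64, against 0.17 in PLC5 and 0.10 in HepG2 for probes of 1024 and above. A total of 793 genes were dim only in HepG2, 766 only in PLC5 and 2425 in both lines. With an intensity of at least 1024 in one line and dim in the other, 112 genes marked PLC5 and 58 marked HepG2.

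The largest rises in PLC5 included a germline antigen, cytoskeletal genes and hormone precursors. MAGEA4, a cancer-testis antigen normally restricted to germ cells, read 98600.1 and 124966 on the PLC5 arrays, against 61.6 and 82.8 on the HepG2 arrays, a log2 difference of 10.60 ± 0.19 (SE). VIM, the intermediate filament of mesenchymal cells, read 107160.2 and 123245 in PLC5, against 78.2 and 88.1 in HepG2 (10.44 ± 0.28). For both genes the lowest PLC5 array stood more than 100-fold above the highest HepG2 array. TMSB4X, an actin-sequestering peptide (9.93), CGA, the common subunit of the glycoprotein hormones (9.93), NNMT, nicotinamide N-methyltransferase (9.88), NTS, the neurotensin precursor (9.38), and TM4SF4, a tetraspanin-like membrane protein (8.83), were among the 15 largest rises as well. Among probes dim in HepG2, the brightest in PLC5 were GJA1, the gap junction protein connexin 43, with 256647 and 256647 in PLC5 (the same rank on both arrays), against 38.6 and 9.38 in HepG2, and LDHB, the heart-type subunit of lactate dehydrogenase, with 215186 and 192138 in PLC5, against 53.8 and 53.5 in HepG2. Taking the HepG2 arrays at 64 or at their own value where higher, GJA1 was at least 4010.1-fold and LDHB at least 3177-fold higher in PLC5. CRH, the corticotropin-releasing hormone, was at least 1819-fold higher by the same bound.

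The largest falls in PLC5 included plasma proteins and imprinted genes. AHSG, the plasma protein fetuin-A, read 102 and 104 on the PLC5 arrays, against 70184 and 73409.8 on the HepG2 arrays (-9.45 ± 0.11). DLK1, an imprinted membrane protein of fetal liver, read 194 and 155 in PLC5, against 121864 and 103638 in HepG2 (-9.34 ± 0.14). S100A6, a calcium-binding protein, read 144 and 146 in PLC5, against 87556 and 85493 in HepG2 (-9.22 ± 0.11). All 3 were within a few fold of the dim range in PLC5 and bright in HepG2. PEG3, an imprinted zinc finger gene (-9.04), AKR1B10, an aldo-keto reductase (-8.53), SERPINA7, the thyroxine-binding globulin (-8.39), and ACTA1, skeletal muscle actin (-7.85), followed. Of probes dim in PLC5, SLC25A38, a mitochondrial carrier, was at least 244-fold and TIMP3, a tissue inhibitor of metalloproteinases, at least 166-fold lower. C2orf69, a gene of little-studied function, read 1 and 3 in PLC5, against 9132 and 8795 in HepG2, both values of PLC5 at or near the floor of the scale.

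Of 19 measured hepatocyte markers, 11 were at least 2-fold lower in PLC5 than in HepG2. An intensity of 1024 or more was reached by 16 of the 19 in PLC5 and by 16 in HepG2, and by 0 of 6 erythroid and 0 of 11 endothelial markers in either line. The other marker lists lay between. At that level in PLC5 were 5 of 7 cholangiocyte, 3 of 12 leukocyte, 2 of 12 stellate cell and 4 of 10 neural markers. In HepG2 the counts were 4, 4, 4 and 2 in the same order. The hepatocyte markers below 1024 were ALB, AHSG and TAT in PLC5 and CPS1, KRT8 and TAT in HepG2. None of the 19 was dim in either line, but neither was any of the 6 erythroid markers, so a level above 64 alone does not set liver genes apart. Against the background of 14.6% higher and 14.5% lower genes, 3 markers were at least 2-fold higher in PLC5 and 11 at least 2-fold lower, with a median log2 difference of -1.18. Without normalization 4 were higher and 7 lower. Their summed intensity was 841817 and 870406 in PLC5, against 1815157 and 1886047 in HepG2. ALB, serum albumin, read 706 and 786 on the PLC5 arrays, against 140644 and 150765 on the HepG2 arrays, 196-fold lower (-7.61 ± 0.11). APOA1, the main protein of high-density lipoprotein, read 5003 and 4722 in PLC5, against 285679 and 311656 in HepG2, 61.4-fold lower (-5.94 ± 0.10). TTR, the thyroxine and retinol carrier transthyretin, read 1117 and 1096 in PLC5, against 58326 and 59087 in HepG2 (-5.73 ± 0.12). On each of these 3 secretory markers both PLC5 arrays lay far below both HepG2 arrays, where 78.8% of all genes had the lines wholly apart. The opposite was seen for CPS1, the first enzyme of the urea cycle, with 49808 and 43052 in PLC5, against 1039 and 986 in HepG2, 45.8-fold higher (5.52 ± 0.13). FGB, the fibrinogen beta chain, was also higher, with 80047 and 88690.4 in PLC5, against 20294 and 19479.9 in HepG2 (2.08 ± 0.09). KRT8, the keratin of simple epithelia including hepatocytes, was the third marker at least 2-fold higher in PLC5 (1.37). By the adjusted p alone, 5 of the 19 markers were higher in PLC5 and 14 lower.

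**Figure D2:**
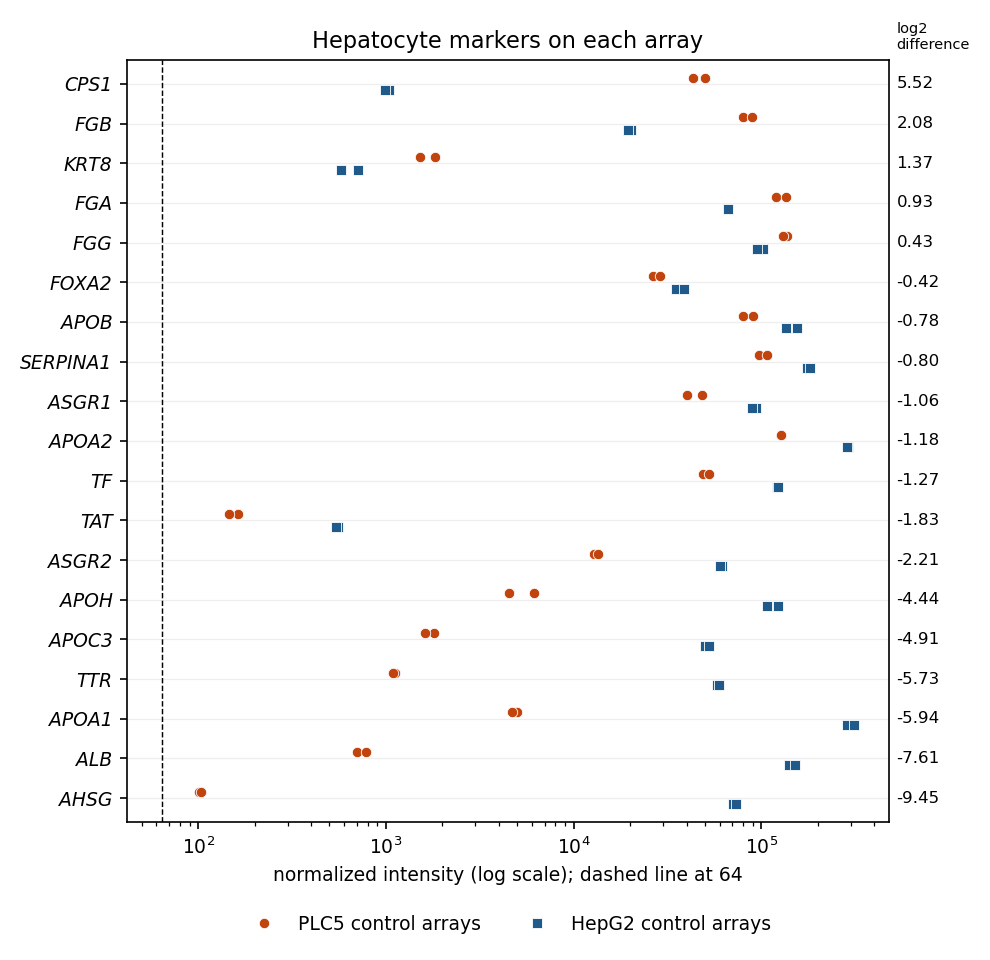
Normalized intensity (log axis) of the 19 measured hepatocyte markers on each array, with 2 points for PLC5 control above 2 points for HepG2 control in each row and the log2 difference at the right. The rows run from CPS1, highest in PLC5 relative to HepG2, to AHSG, lowest, and 11 markers are at least 2-fold lower in PLC5.

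Plasma proteins showed a similar split on a larger list that repeats several hepatocyte markers, among them ALB, TTR, AHSG and FGB. Of 45 measured, 5 were at least 2-fold higher in PLC5 and 22 at least 2-fold lower, with a median of -1.10. ORM2, an acute-phase glycoprotein, had mean intensities (geometric mean of 2 arrays, as for all means below) of 298 in PLC5 and 56919.7 in HepG2, and SERPINA5, the protein C inhibitor, 714 in PLC5 and 95133 in HepG2. SERPINA3, which encodes antichymotrypsin, stood at 815 in PLC5 and 64194 in HepG2. The higher ones included SERPING1, the C1 inhibitor, with 17586 in PLC5 and 1959.8 in HepG2, and APCS, serum amyloid P, with 372 in PLC5 and 51.7 in HepG2. Another plasma protein above HepG2 was VTN, the adhesive protein vitronectin (2.02).

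Genes of lipoprotein assembly and transport were mostly lower in PLC5. Of 27 measured, 1 was at least 2-fold higher and 18 at least 2-fold lower, with a median log2 difference of -1.99. LIPG, endothelial lipase, had means of 31.6 in PLC5 and 2665 in HepG2, and PLTP, the phospholipid transfer protein, 490.3 in PLC5 and 16740.2 in HepG2. APOC3, an inhibitor of lipoprotein lipase, read 1809.6 and 1623 in PLC5, against 50192 and 52880.0 in HepG2 (-4.91 ± 0.11). APOH, beta-2-glycoprotein I, differed by -4.44. The exception was ANGPTL4, another lipoprotein lipase inhibitor, at 5874 in PLC5 and 669 in HepG2 (3.14).

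Coagulation factors and complement gave similar counts, with 2 of 25 and 2 of 24 genes at least 2-fold higher in PLC5, and 11 and 12 at least 2-fold lower. Without normalization each of these lists had 4 higher and 9 lower. The coagulation list shares members with the plasma proteins, among them FGB and SERPIND1. SERPIND1, heparin cofactor II, had means of 664 in PLC5 and 48942 in HepG2, and F11, coagulation factor XI, 281 in PLC5 and 2916 in HepG2. F12, the factor that starts contact activation, was higher, at 5113 in PLC5 and 931 in HepG2. In the complement group, C2, a protease of the classical pathway, read 227 and 187 in PLC5, against 34311 and 38954 in HepG2 (-7.47 ± 0.15). CFB, its counterpart in the alternative pathway, had means of 205 in PLC5 and 8720.1 in HepG2, and CFI, which degrades C3b, 816 in PLC5 and 43566 in HepG2. C4BPA, the alpha chain of the C4b-binding protein, was dim in PLC5 and at least 79.6-fold lower there. The terminal components went the other way in 2 cases, C5 (1.73) and C8G (2.18).

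Liver transcription factors included nuclear receptors with large differences in both directions. Of 31 factors measured, 5 were at least 2-fold higher in PLC5 and 10 at least 2-fold lower (12 and 8 without normalization). NR1H4, the bile acid receptor FXR, read 94.6 and 83.8 on the PLC5 arrays, against 8560.2 and 10505 on the HepG2 arrays, 107-fold lower (-6.74 ± 0.17). NR1I2, the drug-sensing receptor PXR, was dim in PLC5, with 37.2 and 46.0 there, against 2329 and 2389 in HepG2, and at least 36.9-fold lower. NR5A2, the receptor LRH-1, read 6461 and 5989 in PLC5, against 458 and 383 in HepG2, 14.9-fold higher (3.89 ± 0.14). The receptors therefore did not move as one: FXR and PXR stood far lower in PLC5 and LRH-1 far higher. MLXIPL, the glucose-responsive factor ChREBP (-4.87), and GATA6, an endoderm factor dim in PLC5 and at least 5.65-fold lower, also fell below HepG2. NR2F2, the orphan receptor COUP-TFII, was higher (1.69), while its relative NR2F1 was lower (-3.02). NR0B2, the receptor-like repressor SHP and a known target of FXR, differed by -2.18.

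Bile acid genes were lower in PLC5 in 11 of 24 cases and higher in 2, or in 1 without HepG2 control array 1. CYP27A1, which oxidizes the sterol side chain, had means of 1228 in PLC5 and 24493 in HepG2, and AKR1D1, the steroid 5-beta-reductase, 49.8 in PLC5 and 731 in HepG2. SLC51A, one subunit of the basolateral bile acid exporter, stood at 58.2 in PLC5 and 2162 in HepG2. AKR1C4, a hepatic hydroxysteroid dehydrogenase, was at least 2.50-fold higher. Drug and bile acid transporters followed, with 14 of 30 at least 2-fold lower and 2 higher. Without normalization 9 transporters were lower and 6 higher, and 6 bile acid genes were lower and 4 higher. Among the transporters, SLC47A1, the cation exporter MATE1, differed by -6.84 and ABCB1, the multidrug exporter P-glycoprotein, by -4.74. ABCB4, the phosphatidylcholine floppase of the bile canaliculus, was dim in PLC5 and at least 21.5-fold lower. ABCC4, an exporter of organic anions, was 3.74-fold higher in PLC5.

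Drug-modifying enzymes were divided between the lines. Of 42 genes, cytochromes P450 with their reductase POR, 8 were at least 2-fold higher in PLC5 (5 without PLC5 control array 2) and 11 at least 2-fold lower (11 and 5 without normalization), and of 41 conjugation enzymes 10 were higher and 11 lower (17 and 7 without normalization). NNMT and GSTP1 were among the 15 largest rises of all genes. GSTP1, the placental-type glutathione transferase, read 317663 and 328265 on the PLC5 arrays, against 1018 and 1226 on the HepG2 arrays (8.18 ± 0.11). NNMT read 69483 and 63668 in PLC5, against 53.8 and 93.0 in HepG2 (9.88 ± 0.24). SULT2A1, which sulfates steroids and bile acids, went the other way, with 24.1 and 21.2 in PLC5, against 4783 and 4728 in HepG2, at least 74.3-fold lower. NNMT was thus near the dim range in HepG2 and SULT2A1 dim in PLC5, while GSTP1 was dim in neither line. Within the P450 group, CYP24A1, which inactivates vitamin D (2.73), CYP1A1, a dioxin-inducible enzyme (2.68), and CYP2S1 (2.23) were higher, and CYP2W1, an enzyme of tumour and fetal tissue (-5.23), and CYP4F11, a fatty acid hydroxylase (-3.47), were lower.

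Amino acid catabolism was lower in PLC5 for 16 of 41 genes and higher for 6 (10 and 11 without normalization). HPD, of tyrosine breakdown, had means of 113 in PLC5 and 11672 in HepG2. MAT1A, the liver-specific methionine adenosyltransferase, stood at 516 in PLC5 and 8707 in HepG2, and GNMT and BHMT, its neighbours in the methionine cycle, differed by -4.48 and -5.01. The urea cycle itself was split. CPS1 was higher in PLC5, as above, and so were ASS1, argininosuccinate synthase (2.62), and SLC25A15, the ornithine carrier (1.79), whereas ARG1, arginase, was dim in PLC5 and at least 11.9-fold lower.

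Glucose metabolism held opposed changes between isoforms. Of 48 genes, 10 were at least 2-fold higher in PLC5 and 17 at least 2-fold lower (17 and 8 without normalization). The lactate dehydrogenase subunit LDHB was among the brightest genes in PLC5 of those dim in HepG2, as given above. PFKFB3, which makes the activator of phosphofructokinase, read 59144 and 47120.0 in PLC5, against 638 and 817 in HepG2 (6.19 ± 0.16), and the liver isoform PFKFB1 read 94.6 and 333 in PLC5, against 1182 and 1018 in HepG2 (-2.63 ± 0.55). The duplicates of PLC5 disagreed on PFKFB1, and its difference was -1.73 without PLC5 control array 1 and -3.46 without PLC5 control array 2. PFKM, the muscle phosphofructokinase, was 29.0-fold and PDK4, a kinase that shuts down pyruvate dehydrogenase, at least 95.5-fold higher in PLC5. HK2, the tumour-type hexokinase (-3.46), ENO2, the neuronal enolase (-2.57), and SLC2A9, a urate transporter of the glucose carrier family (-4.36), were lower. SLC2A2, the hepatocyte glucose carrier, was higher, with means of 8623 in PLC5 and 1446 in HepG2.

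Oncofetal liver genes were lower in PLC5 for 10 of 21 and higher for 6 (7 and 8 without normalization). AFP, alpha-fetoprotein, read 5394 and 5277 on the PLC5 arrays, against 155264 and 159840.4 on the HepG2 arrays, 29.5-fold lower (-4.88 ± 0.11). GPC3, the heparan sulfate proteoglycan glypican 3, read 13684 and 11679 in PLC5, against 165638 and 168305 in HepG2, 13.2-fold lower (-3.72 ± 0.10). Both serum or tissue markers of liver cancer therefore gave the higher signal in HepG2. Without detection calls, their presence in PLC5 was not judged. H19, an imprinted fetal noncoding RNA, read 6891 and 7488 in PLC5, against 627 and 256 in HepG2 (4.17 ± 0.38). Its difference was 4.80 without HepG2 control array 1 and 3.51 without HepG2 control array 2, and 6.68 on another H19 probe. CD24, a surface glycoprotein, was 24.0-fold higher. PLAGL1, another imprinted gene, had means of 5825 in PLC5 and 469 in HepG2.

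Markers of liver progenitors and of bile duct cells (cholangiocytes) held differences both ways, with 5 of 18 progenitor and biliary genes at least 2-fold higher in PLC5 and 5 lower (10 and 5 without normalization). EPCAM, an adhesion molecule of hepatic progenitors, read 1366 and 1045 in PLC5, against 42345 and 39697 in HepG2 (-5.10 ± 0.15), and SOX9 differed by -3.80 and KRT19 by -2.65. CFTR, the chloride channel of the bile duct, read 4626 and 5284 in PLC5, against 63.0 and 33.1 in HepG2, at least 77.3-fold higher. KRT7, the ductal keratin, was likewise dim in HepG2 and at least 8.90-fold higher in PLC5. EPCAM, SOX9 and KRT19 thus stood higher in HepG2, and CFTR and KRT7 in PLC5.

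Targets of Wnt and beta-catenin signalling, in which stabilized beta-catenin turns on genes that include inhibitors of the pathway, were lower in PLC5 for 16 of 26 and higher for 3, with a median of -1.73. NOTUM, a secreted enzyme that inactivates Wnt proteins, read 55.4 and 76.2 on the PLC5 arrays, against 21238 and 22816 on the HepG2 arrays (-8.40 ± 0.17). SP5, a transcription factor induced by Wnt, read 749.8 and 564 in PLC5, against 45205 and 41205 in HepG2. TNFRSF19, a receptor of the tumour necrosis factor family, had means of 229.9 in PLC5 and 31159 in HepG2. AXIN2, a common readout of the pathway, stood at 83.6 in PLC5 and 497 in HepG2 (-2.57 ± 0.23). DKK1, a secreted Wnt inhibitor, had means of 348 in PLC5 and 5562 in HepG2, LGR5, a stem cell receptor, was at least 7.59-fold lower, and the exceptions were LEF1 (2.72), FZD7 (2.78) and LGR4 (1.88).

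Targets of p53, the stress-activated tumour suppressor, were lower in PLC5 for 14 of 36 and higher for 3, with a median of -0.77. Without normalization 8 were lower and 8 higher. CDKN1A, the cyclin-dependent kinase inhibitor p21, read 1415 and 1202 on the PLC5 arrays, against 11539 and 11313 on the HepG2 arrays, 8.76-fold lower (-3.13 ± 0.12). MDM2, which degrades p53, had means of 899 in PLC5 and 3288 in HepG2, and FAS, a death receptor, 24.8 in PLC5 and 283 in HepG2. FDXR (-2.96) and PHLDA3 (-2.36) were lower too. PMAIP1, the pro-apoptotic protein NOXA, was the largest exception, at 5168 in PLC5 and 403 in HepG2 (3.68).

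Cytokines and regulators under the control of NF-kB, the transcription factor of inflammation, were more often higher than lower in PLC5. Of 38 measured, 18 were at least 2-fold higher in PLC5, against a background of 14.6%, and 3 at least 2-fold lower, with a median of 0.72. Promoters of 4 chemokines of the list that were higher in PLC5 are shown because they share a run of letters. Each window runs from 250 bases before to 50 bases after the gene's start, from RefSeq (GRCh38.p14), read 5′ to 3′ on the gene's strand, with the word GGAATTTCC, one form of the NF-kB binding motif, in capitals:
CXCL1: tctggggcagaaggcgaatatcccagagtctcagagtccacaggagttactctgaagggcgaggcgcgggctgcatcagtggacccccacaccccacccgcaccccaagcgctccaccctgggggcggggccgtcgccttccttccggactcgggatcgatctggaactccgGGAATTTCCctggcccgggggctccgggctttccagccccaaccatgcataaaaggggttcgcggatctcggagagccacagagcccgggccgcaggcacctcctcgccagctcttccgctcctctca
CXCL2: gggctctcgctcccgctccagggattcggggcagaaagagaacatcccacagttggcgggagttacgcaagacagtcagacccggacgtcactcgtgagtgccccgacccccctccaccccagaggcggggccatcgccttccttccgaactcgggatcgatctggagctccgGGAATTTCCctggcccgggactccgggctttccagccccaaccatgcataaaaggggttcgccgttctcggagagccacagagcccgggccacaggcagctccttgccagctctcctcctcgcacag
CXCL5: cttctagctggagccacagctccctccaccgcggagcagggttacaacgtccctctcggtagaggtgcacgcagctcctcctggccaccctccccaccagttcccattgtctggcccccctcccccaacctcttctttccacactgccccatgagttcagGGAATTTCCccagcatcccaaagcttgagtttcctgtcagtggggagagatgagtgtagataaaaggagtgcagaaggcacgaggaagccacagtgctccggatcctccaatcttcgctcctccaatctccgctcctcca
CXCL8: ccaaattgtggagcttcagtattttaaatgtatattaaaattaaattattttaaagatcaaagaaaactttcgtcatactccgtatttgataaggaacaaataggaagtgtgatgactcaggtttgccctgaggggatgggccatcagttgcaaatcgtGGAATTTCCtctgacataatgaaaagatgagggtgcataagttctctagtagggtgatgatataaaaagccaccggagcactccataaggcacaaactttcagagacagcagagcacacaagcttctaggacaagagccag
The windows lie at chr4:73869143-73869442 on the plus strand for CXCL1, chr4:74099146-74099445 on the minus strand for CXCL2, chr4:73998628-73998927 on the minus strand for CXCL5 and chr4:73740319-73740618 on the plus strand for CXCL8. The word began 78, 77, 90 and 91 bases before the start of CXCL1, CXCL2, CXCL5 and CXCL8 in turn. Searched on both strands, GGAATTTCC occurred in 8 of the 14 promoters on hand for the genes of this list at least 2-fold higher in PLC5, in 12 of 30 for the whole list and in 62 of 14641 (0.424%) for all measured genes with a promoter entry. Most of the 8 higher genes with the word are related CXCL chemokine genes and not separate cases. The list was assembled from known NF-kB targets, so the share describes the list, and a match is a description and not a binding site shown in these cells.

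CXCL8, the neutrophil attractant interleukin-8, read 94838 and 90766 on the PLC5 arrays, against 1387 and 1199 on the HepG2 arrays, 71.9-fold higher (6.17 ± 0.11). CXCL1, a chemokine for the same receptor, read 88690.4 and 102518 in PLC5, against 263 and 231 in HepG2 (8.60 ± 0.12), and another CXCL1 probe gave a log2 difference of 5.46. CXCL5 was 85.8-fold and CXCL2 103-fold higher. On all 4 chemokines the PLC5 arrays stood wholly above the HepG2 arrays. The arrays of the lines were wholly apart for 78.8% of all genes. CXCL1 and CXCL2 are close copies of each other, so their probes may share signal. CCL2, a monocyte attractant, had means of 9763 in PLC5 and 71.3 in HepG2, and VCAM1, a leukocyte adhesion molecule, 10204 in PLC5 and 69.8 in HepG2. BIRC3, an inhibitor of apoptosis, differed by 5.81, and the NF-kB subunits RELB and NFKB2 by 4.26 and 3.45. CX3CL1, a membrane-bound chemokine, was the most reduced member (-2.52). Leukocyte markers did not move with this group, with 0 of 12 at least 2-fold higher in PLC5 (2 without HepG2 control array 1 and 2 without normalization) and 2 lower (5 without PLC5 control array 1 and 1 without normalization), and PTPRC, the pan-leukocyte marker CD45, was dim in both lines at 23.9 in PLC5 and 23.8 in HepG2. Of the 12, 4 were dim in both lines and 7 in neither, among them LYZ, lysozyme, with means of 4659.8 in PLC5 and 9194 in HepG2, and CD3D, a T cell receptor chain, with 3703 in PLC5 and 8190.3 in HepG2.

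**Figure D3:**
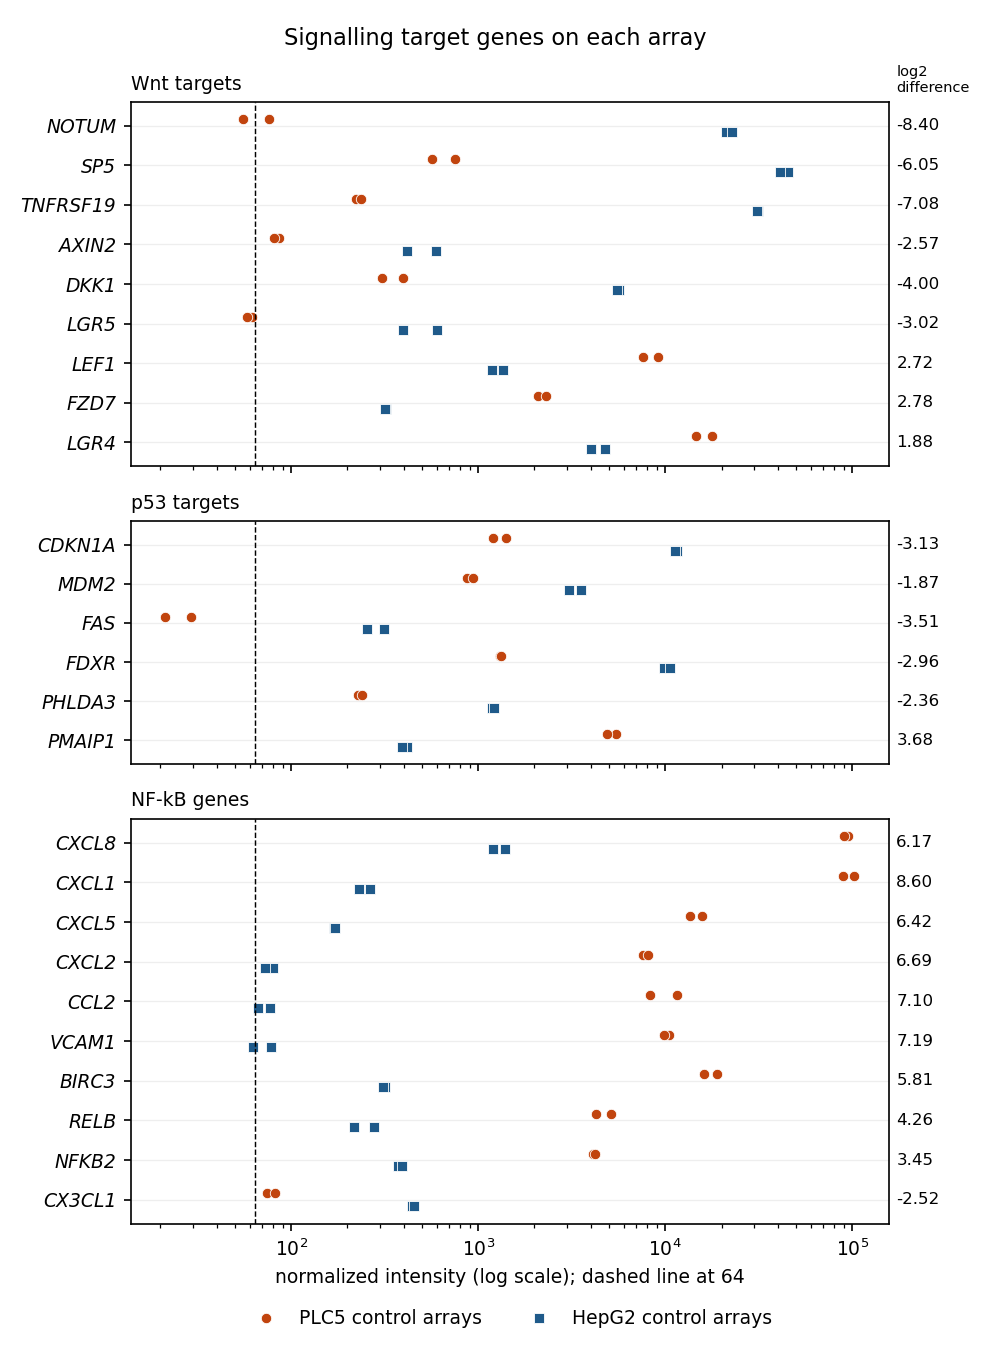
Normalized intensity (log axis) on each array of the 9 Wnt targets, 6 p53 targets and 10 NF-kB genes named in the text, with PLC5 control points above HepG2 control points in each row. Of these, 6 Wnt and 5 p53 targets lie to the left in PLC5, and LEF1, FZD7, LGR4, PMAIP1 and 9 NF-kB genes to the right, while CX3CL1 lies to the left.

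Interferon-stimulated and antigen presentation genes differed both ways, with counts that moved with the normalization. Of 50 interferon-stimulated genes, 14 were at least 2-fold higher in PLC5 and 6 lower (24 and 1 without normalization), with HERC5, which attaches the ubiquitin-like ISG15 to proteins (3.49), higher and MX2, an antiviral GTPase (-3.67), lower. Of 31 HLA and antigen presentation genes, 7 were higher and 7 lower (13 and 2 without normalization). HLA-DMA and HLA-DMB, which together edit the peptides of class II molecules, were 30.9-fold and at least 10.8-fold higher, whereas CD74, the class II invariant chain, was 15.0-fold lower.

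Epithelial junction genes and mesenchymal genes differed both ways. Of 42 junction genes, 9 were at least 2-fold higher in PLC5 and 11 lower (16 and 6 without normalization), and of 47 mesenchymal and matrix-remodelling genes 9 were higher and 9 lower (17 and 7 without normalization). CDH1, E-cadherin, read 2879 and 3202 on the PLC5 arrays, against 531 and 535 on the HepG2 arrays, 5.70-fold higher (2.51 ± 0.14), and CDH2, N-cadherin, differed by 0.99 ± 0.14. SPINT2, an inhibitor of cell-surface proteases, was 132-fold and CLDN7 19.8-fold higher, while MAL2, an apical sorting protein, was at least 55.5-fold and CLDN6, a tight junction protein of embryonic cells, 41.8-fold lower. VIM, as above, and CAV1, the coat protein of caveolae, with 8675 and 10585 in PLC5, against 49.1 and 31.0 in HepG2, were far higher in PLC5. ACTA2, smooth muscle actin, went the other way, with 138 and 133 in PLC5, against 17744 and 17952 in HepG2 (-7.04 ± 0.11), and TAGLN, a smooth muscle actin-binding protein, differed by -4.07. The 12 stellate cell and fibroblast markers, which include ACTA2, summed to 3772 and 5477 in PLC5, against 27479 and 28731 in HepG2, with 1 at least 2-fold higher (0 without PLC5 control array 1) and 4 lower, and their part in the result was not tested. Of the 12, DCN, LRAT and DES were dim in both lines and 8 in neither, among them COL1A1, a fibrillar collagen chain, with means of 1252 in PLC5 and 1913 in HepG2, and RGS5, a pericyte gene, with 1984 in PLC5 and 5784 in HepG2.

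**Figure D4:**
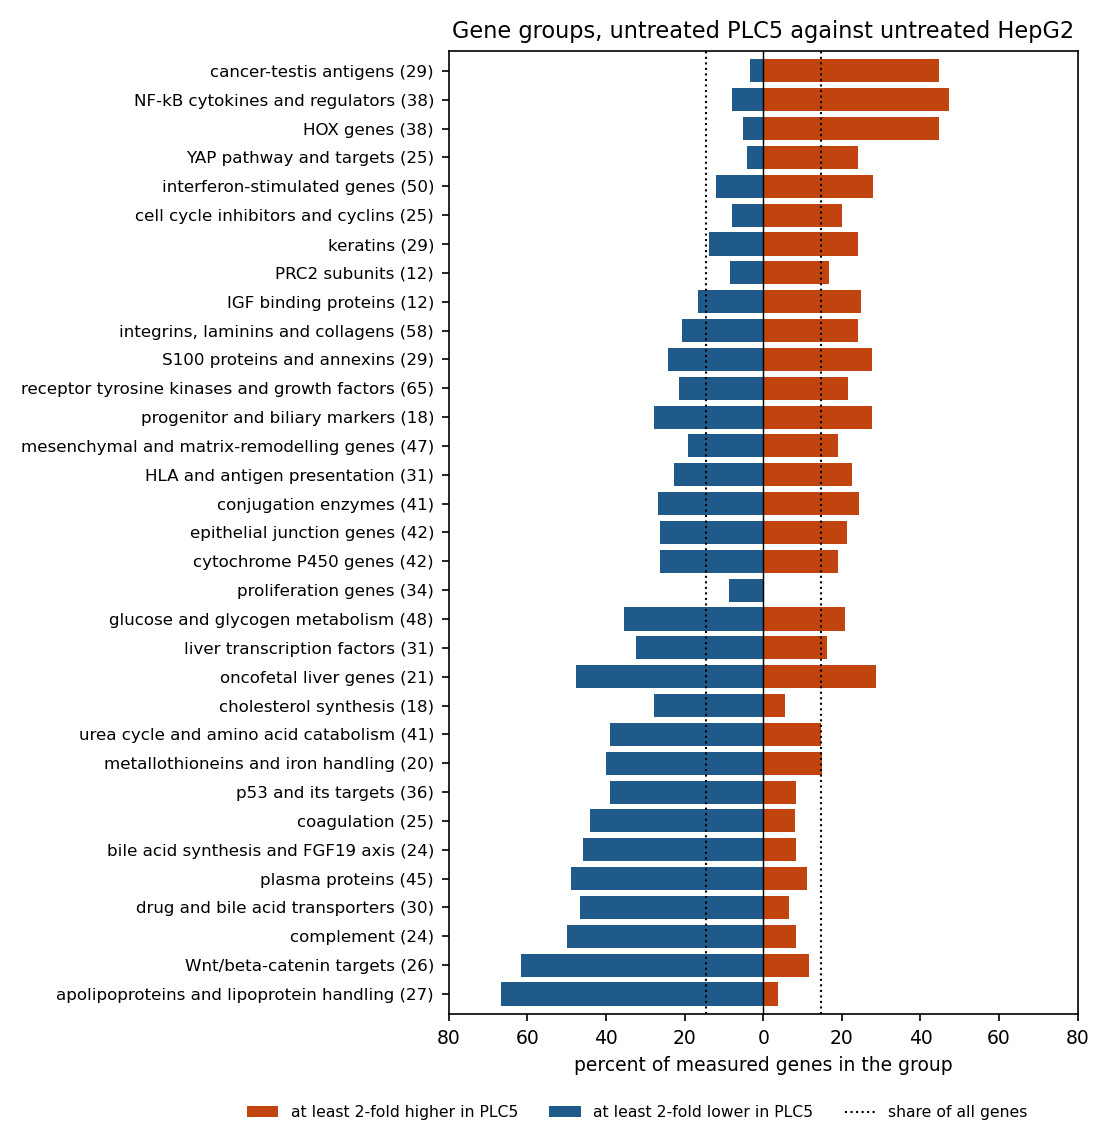
Percent of the measured genes of each group that were at least 2-fold higher in PLC5 (bars to the right) and at least 2-fold lower (bars to the left), for 33 gene groups sorted by the gap between both shares, with the number measured in brackets. The dotted lines mark the background over all 18336 genes, 14.6% higher and 14.5% lower, and the largest leftward bars belong to apolipoproteins and Wnt targets.

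Matrix and adhesion genes held large changes in both directions, with 14 of 58 integrins, laminins and collagens at least 2-fold higher in PLC5 and 12 lower (22 and 7 without normalization). ITGA5, the fibronectin receptor subunit, had means of 11292 in PLC5 and 50.4 in HepG2, and ITGA3, a laminin receptor subunit, 368 in PLC5 and 23.4 in HepG2. COL2A1, a cartilage collagen, was 62.1-fold lower. Keratins were higher for 7 of 29 and lower for 4, and S100 proteins and annexins higher for 8 of 29 and lower for 7 (15 and 4 without normalization). Within the last group, ANXA1 (7.85) and ANXA2 (at least 24.6-fold), which bind membranes in the presence of calcium, were higher, and ANXA6 was lower (-5.02), beside S100A6 given above.

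HOX genes and cancer-testis antigens were more often higher than lower in PLC5. Of 38 HOX genes, which encode the homeobox factors of the body axis, 17 were at least 2-fold higher in PLC5 and 2 lower, or 1 lower without PLC5 control array 1 or without HepG2 control array 1. HOXC13 read 2444 and 2416 in PLC5, against 38.6 and 16.4 in HepG2, at least 38.0-fold higher, and HOXC10 (4.14), HOXC8 (4.14), HOXB7 (3.44) and HOXB6 (3.42) followed. HOXD1 was the main exception (-4.70). Of 29 cancer-testis antigens, 13 were higher and 1 lower (2 without PLC5 control array 1), with MAGEA4 first. DDX43, an RNA helicase of germ cells, was at least 485-fold and MAGEA10 at least 40.9-fold higher, both dim in HepG2, and SSX3 differed by 4.83. The medians of the 2 groups were 0.72 and 0.02, and 5 members of the second were dim in both lines. CSAG1, listed with them, gave 8.06, and 4.26 on its other probe. Only 29 of the 48 listed antigens were measured, and MAGEA and SSX relatives are among the rest. Whether probes share signal within these families was not tested.

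Growth factors and their receptors had 14 of 65 genes at least 2-fold higher in PLC5 and 14 lower (23 and 9 without normalization). EREG, the epidermal growth factor receptor ligand epiregulin, read 10308 and 12012 in PLC5, against 36.1 and 13.1 in HepG2, at least 174-fold higher. PDGFD, a platelet-derived growth factor, was at least 29.7-fold higher, and INHBB, an activin subunit, differed by 3.62. Lower in PLC5 were the receptors EPHA1 (at least 15.5-fold) and FGFR2 (at least 13.8-fold) and MST1, the liver-made ligand of the RON receptor (-4.31). Carriers of insulin-like growth factors differed in opposite directions. IGFBP3 had means of 22929 in PLC5 and 367 in HepG2, while IGFBP2 had 60.7 in PLC5 and 4267 in HepG2. Components and targets of the pathway of YAP, the effector of Hippo signalling, were higher for 6 of 25 and lower for 1 (2 without PLC5 control array 2, 4 without HepG2 control array 2), led by MYOF, a membrane repair protein (at least 46.5-fold), and CCN1, a matrix protein (3.51).

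MT1E, MT2A and MT1X, metallothioneins that bind zinc and copper, were lower in PLC5. MT1E read 779.5 and 775 on the PLC5 arrays, against 100717 and 95224 on the HepG2 arrays (-6.98 ± 0.11), MT2A differed by -4.09 and MT1X by -3.29. These genes are close copies of each other, so probes may share signal, and the size for any single one is uncertain. In the list with iron handling, 8 of 20 genes were at least 2-fold lower and 3 higher (6 and 7 without normalization), and TFR2, the hepatic iron sensor, was 74.9-fold lower while HFE, which acts with it, was 10.4-fold higher. Cholesterol synthesis was at least 2-fold lower for 5 of 18 genes and higher for 1, with smaller sizes, as in FDFT1, squalene synthase (-2.02). Without normalization 2 of the 18 were lower and 1 higher.

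Few proliferation genes met the 2-fold rule. Of 34, 0 were at least 2-fold higher in PLC5 (1 without PLC5 control array 1, 7 without normalization) and 3 were lower (1 without normalization), PLK1 (-1.90), PCNA (-1.36) and CDT1 (-1.35), against background shares of 14.6% and 14.5%, and the median was -0.25. Of 25 cell cycle inhibitors and cyclins, 5 were higher and 2 lower, and CDKN2A, which encodes the p16 and p14ARF inhibitors, was higher, with means of 6047 in PLC5 and 615 in HepG2. The 12 subunits and partners of PRC2, the complex that methylates lysine 27 of histone H3, included 2 at least 2-fold higher and 1 lower. Without normalization PRC2 had 6 higher and 0 lower, and after median centring 1 and 2. Leaving out single control arrays changed the counts of PRC2 as well. EZH2, its catalytic subunit and the target of GSK343, read 7022 and 7465 in PLC5, against 8643 and 9562 in HepG2 (-0.33 ± 0.11, adjusted p = 0.0356 by limma), a small difference that did not pass without any 1 of the 4 control arrays (adjusted p from 0.0519 to 0.214) and that turned positive without normalization (0.55).

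Markers of cell types that a culture of either line should not hold were often above the dim range. Dim in neither line were 9 of 11 endothelial, 7 of 12 leukocyte, 6 of 10 neural and 6 of 6 erythroid markers, and dim in both lines were 1, 4, 2 and 0 in the same order. The summed intensity of the 11 endothelial markers was 3150.5 and 3179 in PLC5, against 3333 and 2292 in HepG2, of the 12 leukocyte markers 11712 and 11730.1 in PLC5, against 22752 and 26190.4 in HepG2, and of the 6 erythroid markers 1310.4 and 1314 in PLC5, against 2309.5 and 1877 in HepG2. Neural markers summed to 20778 and 18939 in PLC5, against 25726 and 26159.8 in HepG2, and 1 of them differed strongly. SNAP25, a protein of synaptic vesicle release, read 11818 and 9949 in PLC5, against 22.4 and 29.8 in HepG2, at least 169-fold higher, while ELAVL4 and GAP43 were dim in both lines. The 6 neural markers dim in neither line included TUBB3, a neuronal tubulin, with means of 6044 in PLC5 and 23590.5 in HepG2, and STMN2, with 1091 in PLC5 and 1560.3 in HepG2. The part of these marker genes in the results above was not tested.

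The comparison was repeated on the 4 arrays of GSK343-treated cells, none of them a control array but all of the same lines. Each gene's probe was still the one chosen over all 8 arrays. Fitted on those 4 arrays alone, 2506 genes (13.7%) were at least 2-fold higher in PLC5 and 2343 (12.8%) lower, and in the 4 control arrays alone 2667 and 2656 (14.5% each). Of the genes higher on control arrays, 2076 (77.8%) were also higher on GSK343 arrays, which is 82.8% of those called there. Of the genes lower on control arrays, 1812 (68.2%) were also lower on GSK343 arrays, 77.3% of those called there. Opposite calls were made for 1 gene higher and 2 genes lower on control arrays. The values that follow come from the fit on all 8 arrays, in which both comparisons share the normalization and the estimate of spread. A test of the difference between the 2 line comparisons, control minus GSK343 arrays, passed the adjusted p for 154 genes (0.84%). Over probes it passed for 221 (0.696%), and for 32 to 124 when 1 of the 8 arrays was left out. Of the 169 named genes that met the 2-fold rule on control arrays, 168 passed the adjusted p in the same direction on GSK343 arrays. There 24.6% of all genes were called higher and 28.1% lower. Most of the 169 were named for large differences on control arrays, so that choice alone made such a count likely. On the GSK343 arrays ALB differed by -8.08, AFP by -4.95, VIM by 11.32, NR1H4 by -7.01 and CPS1 by 5.64. Other probes of several named genes gave smaller differences of the same sign on control arrays, and those of some others larger ones. Those of CDKN2A, FGFR2, MDM2 and PFKM gave 1.26, -1.89, -1.05 and 1.97 in that order. Another MAGEA4 probe gave 8.38 and another NTS probe 11.79. C2orf69, among the largest falls on control arrays, differed by only -0.60 on GSK343 arrays.

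**Figure D5:**
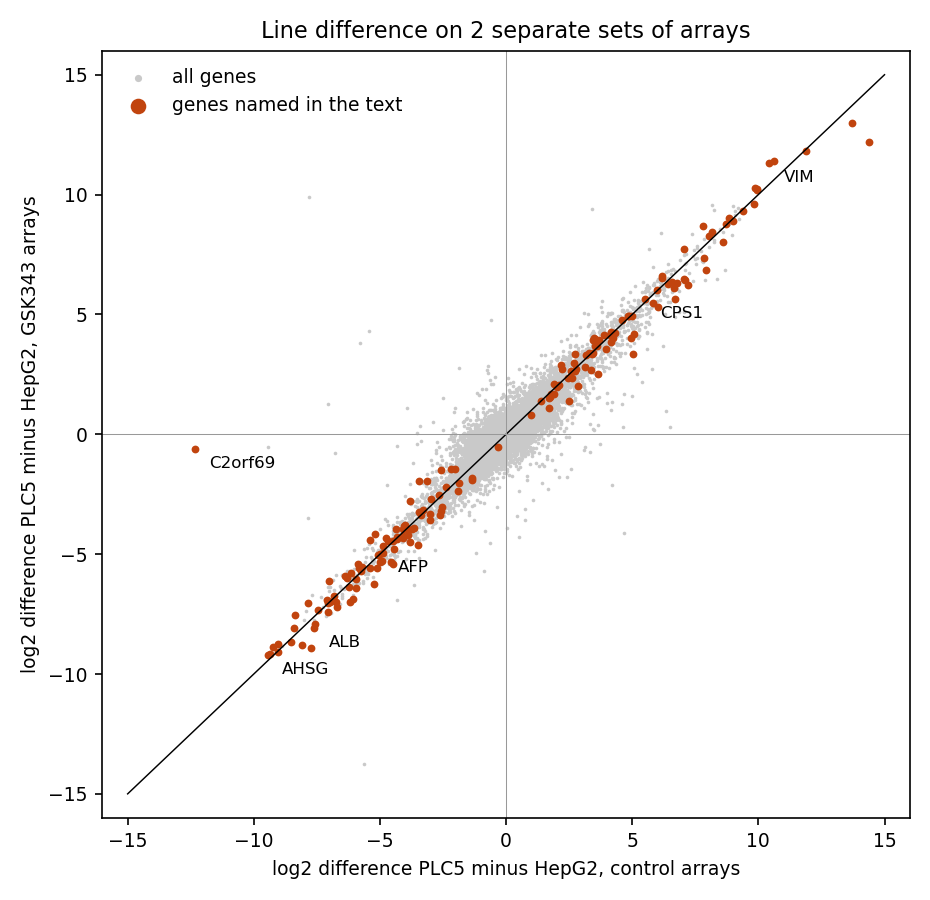
Log2 difference between PLC5 and HepG2 of 18309 of the 18336 genes on control arrays (horizontal axis) and on GSK343 arrays (vertical axis), with the genes named in the text in colour. Most genes named lie near the diagonal, and C2orf69, at -12.34 on control arrays and -0.60 on GSK343 arrays, lies far off it.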

How the data were processed

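Total RNA of PLC5 and HepG2 cells was measured on 8 1-colour arrays, 2 in each of 4 groups, with amino-allyl amplification and Cy5 labelling, per the labels' protocols. The authors deposited a table of linear intensity values, whole numbers with some below 0, 1 per probe and array. The scanner, background correction, flags and detection calls are not stated in the labels or the table. Array medians of the deposited intensity values ran from 226 to 552, and no normalization between arrays was visible. Every sample column belonged to a sample of the series, and the number of arrays limits the precision.

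All 8 arrays were brought to 1 distribution by quantile normalization, values under 1 were set to 1, and log2 was taken. At or below that floor before normalization lay 0% and 6.35% of probes on the PLC5 control arrays, against 6.99% and 0.706% on the HepG2 control arrays. A linear model with 1 mean per group (lmFit, limma 3.58.1 under R 4.3.3) used all 8 arrays, eBayes moderated it with an intensity trend (4 residual and 4.75 prior degrees of freedom), and 2-sided p-values received the Benjamini-Hochberg adjustment across probes. Calls required an adjusted p under 0.05, and the stricter rule also an absolute log2 difference of 1. Arrays correlated at 0.984 to 0.989 within a group and 0.887 to 0.903 between the lines.

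Probes were named from the platform annotation, with symbols updated through RefSeq (GRCh38.p14): 24740 probes had 1 symbol, 977 several and 6024 none, and 18336 genes were each represented by the 1-symbol probe with the highest mean over 8 arrays. Some listed genes were not analysed here. Where a group mean was under 64, fold changes are given as bounds, with the dim group's arrays set at 64 or at their own value where higher.

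The comparison, the members and the gene lists were chosen with earlier results of these data known, so no list is independent support. Some genes stand in several lists and are counted in each. The text names the 15 largest rises and falls with both means at 64 or above, the 10 brightest genes dim in the other line on each side, up to 6 called members a side of each list, the hepatocyte markers and AFP, GPC3, EZH2, CDKN1A, VIM, CDH1 and CDH2, and gives a selection of these. AXIN2, BIRC3, CXCL8, MDM2, NFKB2 and RELB were added after their values were seen. On simulated arrays with 50 changed probes at each size, the fit found 11 of those set to a log2 change of 0.5, 45 of those set to 1, 49 of those set to 1.5 and all 50 set to 2, and called 4 of 31541 unchanged probes. The changed probes all lay in the brighter 50% of probes, went up or down at random and were few beside the unchanged ones. These rates therefore do not carry over to dim probes or to lines in which 58.5% of genes differed. Alternatives covered the normalization, floor, pseudocount, filter on dim probes, variance model, replicate block, threshold, arrays in the fit and each array left out.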

Additional observations from a re-analysis of the deposited data

Results flagged for a closer look

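For 6 of the genes named above, the difference between the lines itself differed between control and GSK343 arrays (limma interaction term, adjusted over all probes). C2orf69 differed between the lines by -12.34 (log2) on control arrays, where the PLC5 values lie at the floor and the bound is at least 140.0-fold, and by -0.60 on GSK343 arrays, a difference of -11.73 (adjusted p = 0.000381). On the PLC5 control arrays its probe read 1 and 3, against 9132 and 8795 on the HepG2 control arrays, and on the GSK343 arrays it had means of 5905 in PLC5 and 8979 in HepG2. CDKN1A differed between the lines by -3.13 on control arrays and -1.95 on GSK343 arrays, a difference of -1.18 (adjusted p = 0.0311). The other 4 were larger on control arrays, by 1.67 for PDGFD (adjusted p = 0.0322), 1.11 for CDH1 (0.049), 1.10 for PLAGL1 (0.0487) and 1.05 for CXCL2 (0.0469). All 6 had the same sign on both sets of arrays. C2orf69 passed the test of the difference without any 1 of the 8 arrays (adjusted p from 7.08e-06 to 0.00669). CDKN1A passed only without PLC5 control array 1 (0.0439 to 0.117), and PDGFD (0.0536 to 0.121), CDH1 (0.0747 to 0.169), PLAGL1 (0.0724 to 0.163) and CXCL2 (0.0697 to 0.15) passed in none of the 8. With 2 arrays a group, single arrays that stand apart within a group could not be tested.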

How the results depend on the processing

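Over probes, 17555 differed between the lines on control arrays (8190 higher in PLC5, 9365 lower) and 15380 on GSK343 arrays. With the 2-fold rule 8945 and 7757 remained, and with the dimmest 50% of probes left out 11219 on control arrays, since fewer probes were tested. Leaving out 1 array gave 14777 to 17268 on control arrays and 12470 to 15616 on GSK343 arrays. The choice of normalization moved the direction: without normalization 14186 probes were higher and 1790 lower on control arrays (10055 and 2735 on GSK343 arrays), and with normalization within each line 17256 and 2983 (17438 and 2988). Normalization within each line moved 50 of the 80 counts over gene lists by more than 1.5 times, no normalization 57 and median centring 9. The cause was not tested. The difference of the 2 line comparisons, 221 probes, was the least stable, with 88 after median centring, 455 with a floor of 64, 19 without the trend, 372 with robust moderation and 32 to 124 without 1 array. Without normalization it gave 288 probes higher and 22 lower, of 310.

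The replicate numbers in the titles did not pair the arrays: the correlation of deviations between groups ran from -0.1141 to 0.00923. The fit with the replicate number as a block called 16876 probes on control arrays, 14700 on GSK343 arrays and 38 for the difference.

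Of 171 genes named, 170 kept their sign and their call in every alternative that tested them, apart from the 2-fold rule, which CDH2 and EZH2 missed. The exception was EZH2, which was positive without normalization (0.55) and with normalization within each line (0.35). Leaving out 1 control array moved the difference of 14 named genes by more than 1.5 times, 12 of them dim in one line and the other 2 H19 and PFKFB1. Differences are relative to the scaling between arrays, and small ones depend on it. Low signal limits precision: the median residual SD was 0.118 among the brightest 10% of probes, against 0.473 among the dimmest 10%.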

Other observations

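Genes of some chromosomes lay off centre as a group. Over the brighter 50% of measured genes, the 87 genes of chromosome 21 had a median log2 difference of 0.72 and the 301 genes of chromosome X of 0.72, against -0.04 over all 9134. Chromosomes 15 and 12 had medians of 0.36 and 0.28. At the other end, chromosome 20 had a median of -0.74 over 267 genes, chromosome 16 of -0.69 over 436 and chromosome 22 of -0.54 over 212. On chromosome 20, 37.1% of the genes were at least 2-fold lower in PLC5 and 4.87% higher, and on chromosome 21, 3.45% were lower and 34.5% higher. The GSK343 arrays gave 0.72, 0.69, -0.78 and -0.75 for chromosomes 21, X, 20 and 16. These are descriptions of 2 lines, with no test.

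Neighbouring genes often met the 2-fold rule together. In the order of RefSeq gene starts, measured genes formed 38 runs of at least 4 neighbours higher in PLC5 and 24 runs lower. The longest run held 11 neighbours on chromosome 14, all lower. Several runs fell on gene families described above: the metallothionein genes MT2A, MT1E and MT1X with 2 neighbours on chromosome 16, APOC3 and APOA1 with 2 neighbours on chromosome 11, SERPINA5 and SERPINA3 with 3 neighbours on chromosome 14, and HOXC10 and HOXC8 with 2 neighbours on chromosome 12. Members of such families can share probe signal, and the number of runs was not set against chance.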
